A study of Mus musculus with 9 samples.

Results

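Btg2, Ier2, Ier5, Cyr61, Gadd45b, Gadd45g and Tiparp are early-response genes that lie outside the AP-1, Egr and Nr4a transcription factor families. They were followed as a set of 7 of the 27497 genes in the deposited table, each matched to a single row by its symbol. The genes were chosen by their RPKM differences between the groups, with earlier results of these data in view: early-response genes outside those families, both with and without a peak at 30 min. The differences between the groups are therefore given for these genes as a description, and no test of them is read as support. The groups were 3 adult C57/BL6 mice kept in filtered clean air, 3 mice sampled after 30 min of a mixture of odorants, and 3 mice sampled at 120 min, after 30 min of the odorants and 90 min of clean air. All mice were aged 6 to 8 weeks or older, and no genetic change is named for any of them. Polyadenylated RNA of the whole olfactory bulb, the first relay of smell in the brain, was sequenced from each mouse. Every cell type of the bulb is mixed in such a sample, so fewer cells of a type and less RNA per cell cannot be told apart.

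Immediate-early genes are transcribed within minutes of a stimulus without new protein synthesis, because factors such as CREB and the serum response factor are already in place and need only be phosphorylated or joined by a cofactor. Many of their mRNAs are short-lived, so the level falls again when transcription slows. In the brain the best known of them encode transcription factors, but others encode regulators of mRNA stability, secreted matrix proteins, stress adaptors and enzymes. The genes described here are of that second kind.

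Their roles differ. Btg2 encodes a small antiproliferative protein that brings the CCR4-NOT deadenylase to mRNAs and is also a p53 target. Ier2 and Ier5 encode related nuclear proteins that share an amino-terminal region, and IER5 works with the phosphatase PP2A on the heat shock factor HSF1. Cyr61, now named Ccn1, encodes a secreted matrix-associated protein of the CCN family that binds integrins. Gadd45b and Gadd45g encode small acidic stress proteins that activate the kinase MAP3K4 and have been tied to DNA demethylation in neurons. Tiparp encodes PARP7, a mono-ADP-ribosyltransferase that is a target and an inhibitor of the aryl hydrocarbon receptor (AHR).

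The promoters of 6 of the 7 genes were held by the RefSeq table used (build GRCm38.p6), and that of Ier2 was not. Stretches of 250 bases before the annotated start of transcription are shown for Btg2 and Cyr61, which pulsed at 30 min, and for Gadd45b and Ier5, which did not meet that definition, so that the upstream sequence of both kinds can be compared. Capitals mark matches to the cAMP response element TGACGTCA or its short form TGACG, the EGR site GCGNGGGCG, the E-box CACGTG and the TEAD site CATTCC on either strand. The sequences read 5′ to 3′ on the strand of the gene.
Btg2, chr1:134079156-134079405, minus strand: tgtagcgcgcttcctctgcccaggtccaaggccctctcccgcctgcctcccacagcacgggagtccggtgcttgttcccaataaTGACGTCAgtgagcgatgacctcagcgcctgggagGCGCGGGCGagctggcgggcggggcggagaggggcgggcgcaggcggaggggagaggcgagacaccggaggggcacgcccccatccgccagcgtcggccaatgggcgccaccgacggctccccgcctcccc
Cyr61, chr3:145649986-145650235, minus strand: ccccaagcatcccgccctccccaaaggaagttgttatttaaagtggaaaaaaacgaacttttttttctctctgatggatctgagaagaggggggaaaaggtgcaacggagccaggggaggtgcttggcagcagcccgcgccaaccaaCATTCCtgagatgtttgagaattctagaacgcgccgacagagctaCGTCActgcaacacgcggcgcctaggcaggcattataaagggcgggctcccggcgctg
Gadd45b, chr10:80929841-80930090, plus strand: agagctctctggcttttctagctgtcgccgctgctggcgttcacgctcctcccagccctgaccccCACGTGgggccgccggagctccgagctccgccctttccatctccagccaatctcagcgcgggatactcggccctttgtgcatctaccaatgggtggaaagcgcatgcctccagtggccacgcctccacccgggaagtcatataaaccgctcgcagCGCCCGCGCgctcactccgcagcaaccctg
Ier5, chr1:155099637-155099886, minus strand: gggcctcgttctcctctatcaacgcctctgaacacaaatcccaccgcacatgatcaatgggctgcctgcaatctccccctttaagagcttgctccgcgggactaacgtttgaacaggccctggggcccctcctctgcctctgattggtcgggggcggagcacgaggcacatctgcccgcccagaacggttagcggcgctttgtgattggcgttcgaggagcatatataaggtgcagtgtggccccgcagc

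The Btg2 window held the full cAMP response element, the binding site of CREB, from base -166 to base -159, counted from the start of transcription. This element was found in 1.55% of the 32851 promoter windows of the table, and in no other window of these genes. The short form TGACG, which lies within the full element on each strand, was found in the Btg2 and Cyr61 windows, in Cyr61 from base -58 to -54 on the reverse strand, and in 17.8% of all windows. Cyr61 also held a TEAD site, the motif of the partners of the coactivator YAP, from base -103 to -98 (12.6% of all windows). The E-box was found in Gadd45b and Gadd45g (6.02%), and the EGR site in Btg2 and Gadd45b (4.70%). The AHR core GCGTG was found in Btg2, Cyr61, Gadd45b and Tiparp (28.2%), with 1 match in Tiparp. TATAAA was found in Cyr61, Gadd45b and Gadd45g (12.4%), and CCAAT in Btg2, Ier5, Gadd45b and Gadd45g (33.8%). No window of these genes held a CArG box, a kappaB site or the AP-1 site TGANTCA, which were in 1.47%, 7.25% and 6.75% of all windows. The 6 windows had 54.8% to 75.2% GC and 15 to 28 CG dinucleotides, against medians of 52.4% and 6 over all windows. The shares given for motifs that contain CG are thus not matched for base composition. These matches describe letters in a short window and say nothing of binding.

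**Figure D1:**
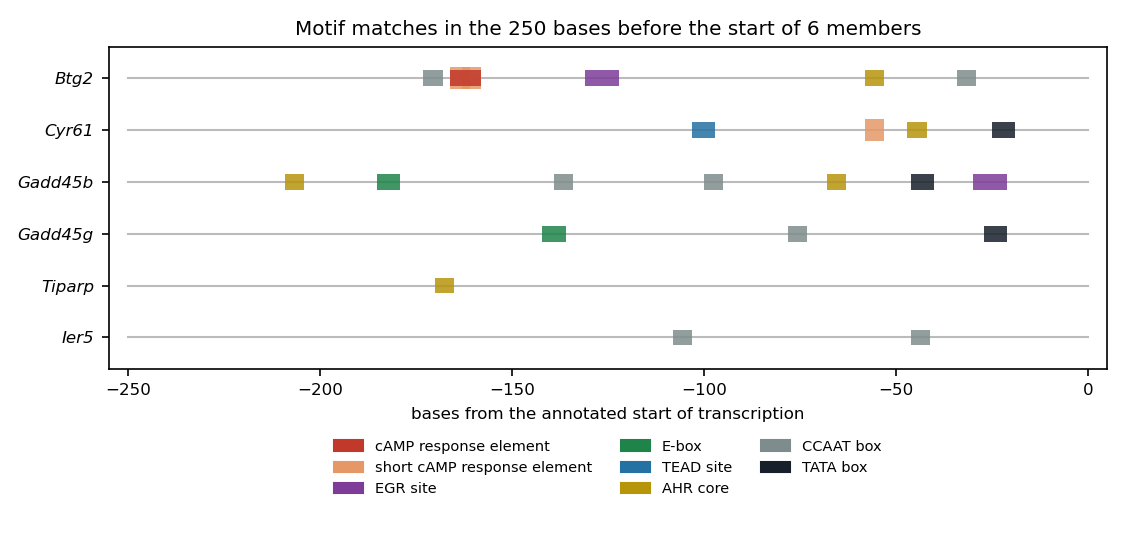
Motif matches in the 250 bases before the annotated start of the 6 genes with a promoter entry, drawn to scale by distance from the start (horizontal axis, bases), 1 line per gene. Btg2 is the gene with the full cAMP response element, and Tiparp and Ier5 have 1 and 2 matches.

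The depth recovered from the spacing of low values was about 7150000 to 29900000 reads per library, and all pairs of libraries correlated at 0.932 to 0.977 across genes, which are not independent replicates. The deposited values are in RPKM, reads normalised to gene length and library size. Behind a single value of these genes stood from 28 estimated reads (Cyr61 in 120 min mouse 3) to 4918 (Ier5 in clean air mouse 3). Each of the 7 genes had a mean above 1 RPKM in clean air alone, and all were among the 12780 genes whose mean over the 9 libraries reached 1 RPKM and that were tested. Markers of mitral and tufted cells summed to 1027 to 1437 RPKM per library and those of granule and other GABAergic interneurons to 769 to 1208 RPKM, with none of either list at 0 in all libraries, as the tissue label says. Markers of dividing cells summed to 0.07 to 1.08 RPKM in all libraries.

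A gene was called when its adjusted p (limma, Benjamini-Hochberg over all 12780 genes) was under 0.05, and a pulse was defined as a call upward at 30 min against clean air together with a call downward at 120 min against 30 min. Btg2, Ier2 and Cyr61 met that definition, and Gadd45b, Gadd45g, Tiparp and Ier5 did not. Of all tested genes 10, or 0.0782%, met it, the other 7 being Fos, Egr1, Egr4, Npas4, Junb, Arc and Dusp1. A gene can peak at 30 min and still miss this definition. Nr4a1, Fosb and Atf3 missed it, yet were called higher at 30 min against the mean of clean air and 120 min. Mean levels of Nr4a1 were 38.9 RPKM in clean air, 255.9 at 30 min and 55.9 at 120 min. Every gene called lower at 120 min than at 30 min had also been called higher at 30 min. Both comparisons share the 30 min mice, so these calls are not independent. No gene was called higher at 120 min than at 30 min by limma, with 430 genes at an unadjusted p under 0.05 in either direction.

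Btg2 had 5.47, 4.86 and 6.06 RPKM in clean air mice 1, 2 and 3. It had 40.95, 33.22 and 42.44 RPKM in the 30 min mice, then 5.72, 6.47 and 5.33 RPKM in the 120 min mice. Every 30 min mouse lay far above the 6 other mice, and the clean air and 120 min mice overlapped. The mean was 38.9 ± 4.95 RPKM at 30 min against 5.46 ± 0.600 in clean air and 5.84 ± 0.579 at 120 min (SD, n = 3 per group). On the scale of log2(RPKM + 0.5) the fitted difference was 2.72 ± 0.17 at 30 min (SE), a 6.59-fold higher level, and -2.63 ± 0.17 from 30 min to 120 min. At 120 min the difference from clean air was 0.09, with a 95% interval of -0.28 to 0.46. Btg2 had the largest moderated t statistic of the 12780 genes at 30 min while ranking 10th by size. Its standard deviation within groups, 0.157 on the log2 scale, lay below the median of 0.279 over tested genes.

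Ier2 had 9.34, 7.2 and 13.18 RPKM in clean air. Its 30 min values were 49.15, 31.62 and 66.28 RPKM and its 120 min values 8.99, 8.19 and 7.07 RPKM. The 30 min mice again stood above all others, but they differed from each other by more than for Btg2. The fitted log2 difference was 2.23 ± 0.28 at 30 min and -2.47 ± 0.28 from 30 min to 120 min. At 120 min Ier2 was at -0.24 against clean air, with a 95% interval of -0.86 to 0.37. The lowest 30 min value, in mouse 2, rested on 1356 estimated reads.

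Cyr61 was the least expressed of the set in clean air, with 2.43, 2.56 and 1.98 RPKM. At 30 min it had 24.32, 7.1 and 15.26 RPKM, and at 120 min 1.48, 2.71 and 1.97 RPKM. The 30 min mice did not overlap with the others, yet mouse 1 stood far above mouse 2, which still had 406 estimated reads. The log2 difference was 2.35 ± 0.37 at 30 min and -2.52 ± 0.37 from 30 min to 120 min, and at 120 min it was -0.17 against clean air (95% interval -0.99 to 0.65). Without 30 min mouse 2 these differences were 2.81 at 30 min and -2.98 from 30 min to 120 min. The standard deviation of Cyr61 within groups, 0.545 on the log2 scale, was above that of 90.7% of tested genes.

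**Figure D2:**
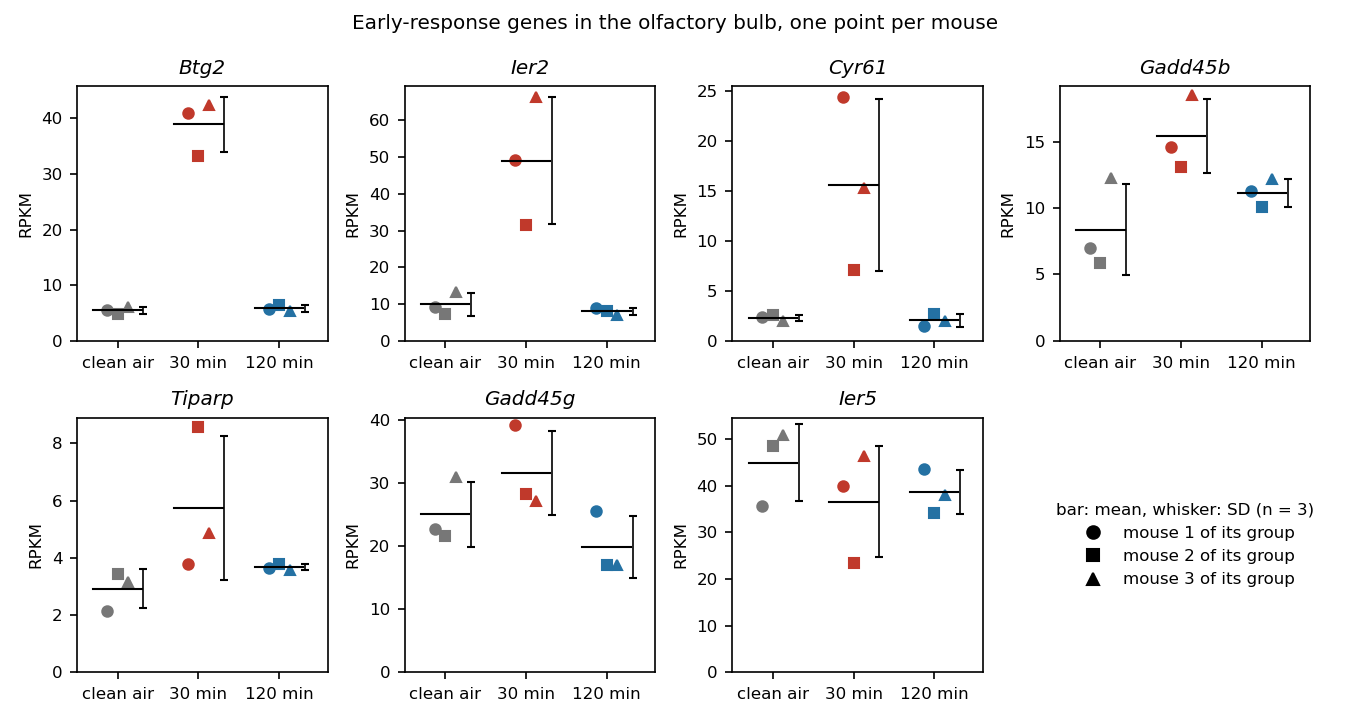
RPKM (vertical axis, from 0) of the 7 genes in each of 9 mice by group, with symbols for the mouse number within a group, a bar for the mean and a whisker for the SD over 3 mice. Btg2, Ier2 and Cyr61 form a peak at 30 min with clean air and 120 min mice at like levels, whereas the groups lie close together for Gadd45g and Ier5.

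The call of Cyr61 was the least steady of the 3. It was lost in 15 of 18 alternative settings for each of the comparisons of 30 min with clean air and of 120 min with 30 min, and it needed every mouse but 30 min mouse 2. Same-numbered mice of the groups tended to deviate together, and the main fit held no block for the mouse number. At 30 min against clean air such a block gave Cyr61 an adjusted p of 0.0992 (limma, 0.00231 to 0.281 over its alternatives). From 30 min to 120 min the same block gave 0.120 (limma; 0.00229 to 0.314 over its alternatives). Ier2 lost its call at 30 min without clean air mouse 1, and its call from 30 min to 120 min without 120 min mouse 3. Btg2 was called under all 18 alternatives in both comparisons.

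Gadd45b had clean air values of 7.0, 5.88 and 12.24 RPKM, 30 min values of 14.62, 13.11 and 18.5 RPKM and 120 min values of 11.25, 10.05 and 12.15 RPKM. All 30 min mice were above all clean air mice, although clean air mouse 3 came close to 30 min mouse 2, and the 120 min mice lay below the 30 min mice and overlapped with clean air. The log2 difference was 0.89 ± 0.25 at 30 min, 0.45 ± 0.25 at 120 min against clean air and -0.44 ± 0.25 from 30 min to 120 min. Without clean air mouse 3 it was 1.19 at 30 min and 0.75 at 120 min against clean air. None was called, and the mean at 120 min kept 39.5% of the rise in mean RPKM seen at 30 min, against 1.13% for Btg2.

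Tiparp had 2.15, 3.45 and 3.16 RPKM in clean air. The 30 min mice had 3.8, 8.58 and 4.87 RPKM, and the 120 min mice 3.66, 3.8 and 3.58 RPKM. Both exposed groups lay wholly above clean air, by a narrow margin, and the 30 min mean depended on mouse 2. The log2 difference at 30 min was 0.82 ± 0.28, and it was 0.51 without that mouse. At 120 min it was 0.31 ± 0.28 above clean air, and neither difference was called. In the annotation a pseudogene on the opposite strand, 4931440P22Rik, overlaps Tiparp. Without knowledge of the strand in the authors' counting its reads could not be set apart.

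Gadd45g, the relative of Gadd45b, stood at 22.72, 21.59 and 30.96 RPKM in clean air; the 30 min mice had 39.24, 28.34 and 27.19 RPKM, the 120 min mice 25.6, 17.11 and 17.11 RPKM. The 30 min mice overlapped with clean air and lay above the 120 min mice. The log2 difference was 0.33 ± 0.22 at 30 min, with a 95% interval of -0.16 to 0.82, and -0.66 ± 0.22 from 30 min to 120 min, where it was not called. Its 120 min difference from clean air had the opposite sign to that of Gadd45b, at -0.33 ± 0.22 (95% interval -0.82 to 0.16), while that of Gadd45b had an interval of -0.10 to 1.01.

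Ier5 was the most abundant of the set at rest and did not follow Ier2. Its clean air mice had 35.63, 48.48 and 50.76 RPKM, its 30 min mice 39.99, 23.43 and 46.39 RPKM, and its 120 min mice 43.5, 34.12 and 38.02 RPKM. All 3 groups overlapped. The log2 difference was -0.33 ± 0.25 at 30 min, with a 95% interval of -0.88 to 0.21 (-0.04 without 30 min mouse 2), and -0.21 ± 0.25 at 120 min, with an interval of -0.76 to 0.34. The 30 min interval lay wholly below that of Ier2, 1.61 to 2.84.

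**Figure D3:**
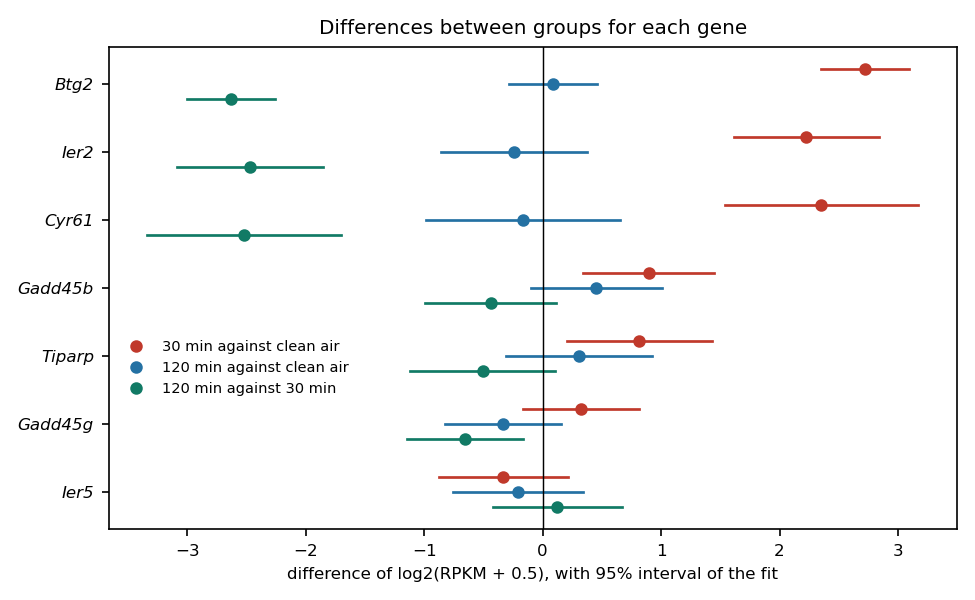
Fitted differences of log2(RPKM + 0.5) between groups (horizontal axis) with 95% intervals, 1 row per gene and 1 colour per comparison. Btg2, Ier2 and Cyr61 have 30 min differences of 2.23 to 2.72 and 120 min differences from clean air near 0, while no difference of the other 4 genes exceeds 0.89 in either direction.

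Over the set, 3 of 7 genes were called higher at 30 min, where 0.133% of all tested genes were, and none of the 7 was called lower (0.00782%). From 30 min to 120 min, 3 of 7 were called lower, against 0.0782% of all genes. In the contrast of 30 min with the mean of clean air and 120 min, the same 3 were called higher, as were 0.102% of all genes. In these 3 comparisons 5, 4 and 6 of the 7 had an unadjusted p under 0.05 (limma), where 756, 430 and 371 of all 12780 genes did. Ier5 alone of the 7 had none. At 120 min against clean air none of the 7 was called by limma, none had an unadjusted p under 0.05, and 0.0861% of all genes were called (0.0704% higher and 0.0156% lower). Groups did not overlap, with every 30 min mouse above every clean air mouse, for 5 of 7 genes (7.29% of all tested genes), and the reverse held for none of the 7 (4.08%). Every 120 min mouse was below every 30 min mouse for 5 of 7 genes (5.66%), namely Btg2, Ier2, Cyr61, Gadd45b and Gadd45g, and above for none of the 7 (4.99%). Every 120 min mouse was above every clean air mouse for Tiparp alone of the 7 (7.86%), and below for none (5.27%). The rule chose the genes on these contrasts, so these shares describe the set and add no weight to it. The comparisons with clean air share the clean air mice, and those with 30 min share the 30 min mice.

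RPKM is scaled by length, so levels could be ordered between genes. In clean air the order of mean RPKM was Ier5 (44.96), Gadd45g (25.1), Ier2 (9.91), Gadd45b (8.37), Btg2 (5.46), Tiparp (2.92) and Cyr61 (2.32). Ier2 and Gadd45b, Gadd45b and Btg2, and Tiparp and Cyr61 overlapped between mice. At 30 min Ier2 (49.0) and Btg2 (38.9) had moved above Ier5 (36.6) and Gadd45g (31.6), though these 4 neighbours overlapped, and Cyr61 (15.6) stood beside Gadd45b (15.4) and above Tiparp (5.75), with which it overlapped. Btg2 went from above 33.9% of tested genes in clean air to above 84.5% at 30 min and 35.4% at 120 min. At 120 min the order was Ier5 (38.5), Gadd45g (19.9), Gadd45b (11.2), Ier2 (8.08), Btg2 (5.84), Tiparp (3.68) and Cyr61 (2.05), and no neighbours in it overlapped.

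Mice of a group also differed in ways that several of the genes shared. At 30 min mouse 2 was the lowest of its group for 5 of the 7 genes (Btg2, Ier2, Ier5, Cyr61 and Gadd45b), where it was lowest for 36.2% of all tested genes. It was the highest for Tiparp. Its log2 deviation from the group mean was -0.92 for Cyr61, -0.58 for Ier5 and -0.56 for Ier2, but -0.22 for Btg2. Among the reference early genes it was -0.23 for Fos, -0.17 for Npas4, -0.08 for Dusp1, -0.05 for Arc, -0.0014 for Egr1 and 0.12 for Nr4a1. That library was the deepest of its group, at about 28800000 reads. In clean air mouse 3 was the highest for 5 of 7 genes (28.6% of all tested genes), with deviations of 0.59 for Gadd45b, 0.43 for Ier2 and 0.32 for Gadd45g. In the same mouse Egr1 was at 1.07 and Nr4a1 at 1.24 above the group mean, whereas Btg2 was at 0.14 and Cyr61 at -0.18. These patterns across mice were seen after the values and were not tested.

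**Figure D4:**
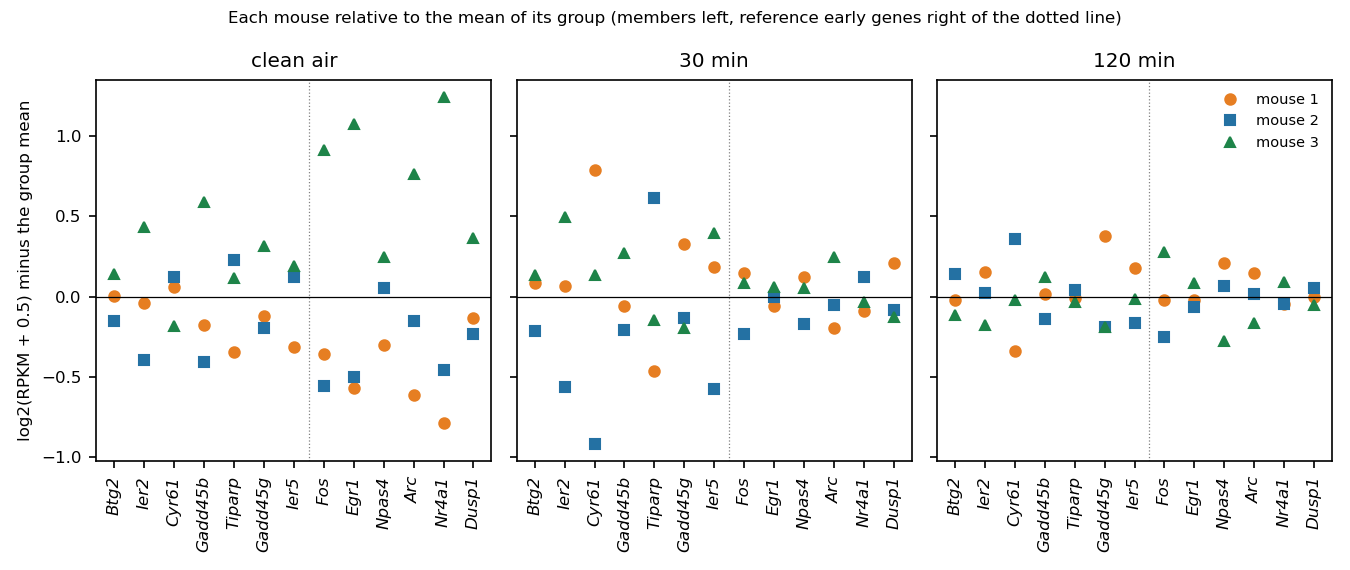
Deviation of each mouse from the mean of its group on the scale of log2(RPKM + 0.5) (vertical axis) for the 7 genes and, right of the dotted line, 6 reference early genes, with 1 panel per group. Clean air mouse 3 is the highest point for most genes and reaches 1.24 for Nr4a1, and 30 min mouse 2 lies lowest for Cyr61 at -0.92.

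Cyr61 is also made by vessel and connective tissue cells, so their markers were set beside it. The 8 endothelial and mural markers summed to 150.5, 102.17 and 140.15 RPKM in 30 min mice 1, 2 and 3, the same order as Cyr61 in those mice. In clean air mice 1, 2 and 3 the sums were 141.44, 133.31 and 121.17 RPKM, within the range of the 30 min mice. At 120 min they were 117.37, 130.15 and 134.91 RPKM, and neither group had the order of Cyr61. Cldn5, a tight junction gene, had the highest level of the 8 and was lower at 30 min, though not called, with a mean of 60.02 ± 16.2 RPKM against 79.98 ± 5.99 in clean air. The other 7 markers were above clean air, the median log2 difference of the 8 was 0.37 against 0.08 over all tested genes, and none was called, with 2 at an unadjusted p under 0.05. None was at 0 in all libraries. Choroid plexus and meninges markers, which include the connective tissue genes Col1a1, Col1a2 and Dcn, summed to 59.63, 54.97 and 47.55 RPKM in 30 min mice 1, 2 and 3, not the order of Cyr61. Their sums were 31.4 to 64.0 RPKM in clean air, and 5 of 5 tested were above clean air at 30 min without being called. Red blood cell markers summed to 42.9 to 162 RPKM in clean air, 175 to 210 RPKM at 30 min and 52.3 to 197 RPKM at 120 min. Of the 4 identifiers on that list 1, Hba-a1, was listed at 0 in every library, and 3 were above clean air at 30 min and not called. The part of these cells in the 30 min level of Cyr61 was not tested.

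The genes share a compact structure. In GENCODE release M21, Ier2 spans 1522 bases and Ier5 3276 bases, both with 1 exon and no intron, and Btg2 spans 3951 bases with 2 exons. Gadd45g, Gadd45b and Cyr61 span 1791, 2132 and 3006 bases, and the median of the 11740 tested coding genes with a match was 25610 bases. Only 1.16% of these genes were shorter than Ier2 and 7.10% shorter than Btg2. Tiparp, with 27109 bases and 6 exons, is the exception and lies at the middle of the distribution, with 51.7% of genes shorter. Short genes were found among both those that pulsed and those that did not.

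**Figure D5:**
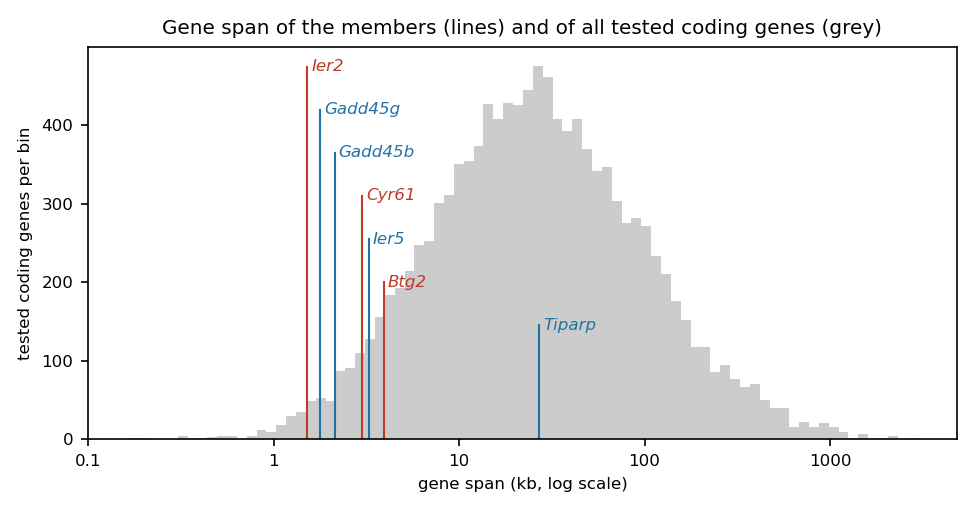
Gene span in kb (horizontal log axis) of the 7 genes (lines; red for those that pulsed, blue for the others) over the distribution of all tested coding genes (grey, genes per bin). All but Tiparp lie in the short tail, from 1522 bases for Ier2 to 3951 bases for Btg2.

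The pentamer ATTTA, the core of AU-rich elements that shorten the life of many early mRNAs, was counted in the annotated 3′ UTR of the main transcript. Cyr61 held 5 copies, or 7.25 per kb, and 97.7% of tested genes had a lower density. Tiparp held 9 copies (4.61 per kb, 92.4% lower) and Btg2 5 copies (2.27 per kb, 70.4% lower). Ier5 held 2 copies, and Ier2, Gadd45b and Gadd45g held none, against a median density of 1.25 per kb. Both the genes that pulsed and those that did not thus spanned the range from none to dense.

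Relatives of these genes were examined by family. Of the BTG and TOB family, 3 of 5 members were tested and none was called at 30 min, with 2 at an unadjusted p under 0.05. Tob1, an antiproliferative protein that also binds the CCR4-NOT complex, had 31.52, 31.56 and 28.1 RPKM in clean air, 41.64, 45.34 and 57.61 at 30 min and 26.84, 30.43 and 31.46 at 120 min. Its 30 min mice stood above all others, with a log2 difference of 0.64 ± 0.16 that was not called (adjusted p = 0.546, limma). Tob2 had a like difference of 0.63 ± 0.23 that was 0.92 without clean air mouse 3. Btg1 had -0.05 ± 0.33, and Btg3 and Btg4 were below the filter, at or near 0.

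Of the CCN family, Ctgf, which like Cyr61 is a classic target of YAP, had a log2 difference of 0.02 ± 0.18 at 30 min, with 26.1 ± 3.57 RPKM in clean air and 26.5 ± 4.58 at 30 min. Nov had 0.16 ± 0.23 and Wisp1 0.08 ± 0.21, none of the 3 was called or had an unadjusted p under 0.05, and Wisp2 was below the filter. Gadd45a, the third GADD45 gene, had -0.26 ± 0.20 at 30 min and -0.61 ± 0.20 at 120 min, where its 3.7 to 5.08 RPKM lay below the 6.56 to 8.01 RPKM of clean air without being called (adjusted p = 0.366, limma). Gadd45gip1, a mitochondrial ribosomal protein whose name comes from its binding to GADD45 proteins, had -0.09 ± 0.20 at 30 min. Ier5l, a relative of Ier5, had -0.24 ± 0.24 and Ier3 -0.07 ± 0.27 at 30 min.

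Partners and pathway genes of the set were counted over 13 lists, families included. Of 91 tested genes none was called at 30 min, at 120 min or between these times by limma, with 8, 8 and 4 at an unadjusted p under 0.05, where 756, 1223 and 430 of all 12780 genes were. The median log2 difference was 0.11 at 30 min, against 0.08 over all tested genes. Tested genes of CCR4-NOT, the deadenylase that BTG2 recruits, together with Pan3, Pabpc1 and Prmt1 had a median of 0.08 (13 genes). Among these Cnot6l was at 0.36 ± 0.26 and Cnot1 at 0.33 ± 0.18. Effectors of GADD45 proteins had 0.08 (10 genes), with Mapk9, which encodes the kinase JNK2, at 0.47 ± 0.21. DNA demethylation genes had 0.11 (6 genes), with the repair enzyme gene Apex1 at 0.30 ± 0.19 and the glycosylase gene Mbd4 at 0.29 ± 0.35. Receptors of CYR61 had 0.32 (6 genes), with the integrin genes Itga6 at 0.56 ± 0.17 and Itgam at 0.46 ± 0.24.

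The axis of YAP, TEAD and the serum response factor had a median of 0.24 (12 genes), with Srf itself at 0.49 ± 0.19 and its cofactor Mkl2 at 0.53 ± 0.19. The AHR axis had 0.32 (5 genes), with Ahr at 0.41 ± 0.28 from a level of 1.08 ± 0.195 RPKM in clean air, and its partner gene Arnt2 at 0.32 ± 0.19. Cyp1a1, the AHR target most used as a marker, and the repressor Ahrr were below the filter. The PARP family had 0.13 (12 genes), with the tankyrase genes Tnks at 0.49 ± 0.16 and Tnks2 at 0.32 ± 0.15. PP2A subunits and Hsf1 had 0.11 (9 genes), with Ppp2cb at 0.35 ± 0.20 and Ppp2r2d at 0.22 ± 0.22. Genes of p53 and its targets had 0.04 (9 genes), in which Cdkn1a, a cell cycle inhibitor, was at 0.44 ± 0.13 and Bbc3, which encodes the death protein PUMA, at -0.62 ± 0.28. At 120 min Cdkn1a had 101.6, 96.28 and 105.49 RPKM against 57.88 to 61.32 RPKM in clean air, a log2 difference of 0.77 ± 0.13 that was not called (adjusted p = 0.135, limma).

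Likeness to the mean standardized profile of the set over the 9 libraries was ranked among tested genes outside the set. The highest were Sertad3, Junb, Npas4, Arc, Dusp1, Egr4, Usp38 and Egr1, with Pearson correlations of 0.930 to 0.960. The points share their libraries and the 3 groups, so these values are a description. Each was picked as the highest of all tested genes outside the set over only 9 libraries, so a high value alone shows no relation. Outside the set, Btg2 and Ier2 were each most like Npas4 (0.990 and 0.971) and Junb (0.986 and 0.959), and Cyr61 was most like Junb (0.940) and March3 (0.940). Ier2 and Cyr61 each correlated more highly with Btg2 than with any gene outside the set. Gadd45b was most like mKIAA1896 (0.952) and Ch25h (0.941), Tiparp like Stk39 (0.932) and Ctdspl2 (0.921), and Ier5 like D4Wsu114e (0.962) and CS444466 (0.945). Gadd45g was most like Fzd9 (0.943) after an unnamed gene, ENSMUSG00000080578 (0.957). Within the set Btg2 correlated with Ier2 at 0.973 and with Cyr61 at 0.946 but with Ier5 at -0.30, and Gadd45b with Gadd45g at 0.456.

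At 30 min the 6 reference early genes had log2 differences of 4.53 ± 0.33 for Fos, 3.57 ± 0.29 for Arc, 3.25 ± 0.35 for Egr1, 3.04 ± 0.20 for Npas4, 2.99 ± 0.41 for Nr4a1 and 1.97 ± 0.18 for Dusp1. The estimates of Btg2, Cyr61 and Ier2 were below those of 5 of them and above that of Dusp1, and these differences between genes were not tested. At 120 min Fos was still at 1.65 ± 0.33 and Egr1 at 0.88 ± 0.35 against clean air, neither called, while Npas4 was at -0.19 ± 0.20, near the values of Btg2, Ier2 and Cyr61.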

How the data were processed

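Bowtie and the build mm9 are named for the alignment in the submitters' processing notes. Not given in the sources used here are Bowtie's version, the annotation, how reads were counted and whether strand was used. The authors deposited RPKM values for 27497 identifiers with 1 column per mouse. Columns were matched to mice by the codes in the sample descriptions. No GEO label names separate batches.

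The 12780 genes that averaged 1 RPKM or more were fitted by limma (version 3.58.1, under R 4.3.3, with a mean-variance trend) on log2(RPKM + 0.5), using all 9 libraries and 6 residual degrees of freedom. Fold changes on this scale understate those of low genes. Tests were two-sided, with Benjamini-Hochberg adjustment over all tested genes at 0.05. The fit was tested on simulated data. The members, gene lists and naming rule were chosen with earlier results of these data known. Named were all members, all measured family relatives, 2 genes with the largest moderated t of each other list, the genes most like the set, and 6 reference early genes.

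Depth was estimated from the spacing of values of 1961 annotated RNAs under 200 nt, with lengths 34 nt below the annotated ones, the offset among those tried that made most values of 1 library whole multiples of a read. With it, 85.5% to 93.8% of low values came out whole within 0.05, against 25.7% to 31.8% with the full length. Read estimates cover counting error only. GENCODE M21, a later build, was used by identifier for structure and for the lengths behind the depth and read estimates. RefSeq (GRCm38.p6) was used for promoters. The gene lengths behind the authors' RPKM are not given, so the read estimates are approximate. Alternatives were other pseudocounts, filters, scalings and variance priors, fits of only the groups compared, a block for the mouse number, and leaving out each mouse. At 30 min against clean air same-numbered mice deviated together, with correlations of 0.301, 0.384 and 0.147 across genes. Between the 30 and 120 min groups these were 0.32, 0.44 and 0.08, and between clean air and 120 min 0.22, 0.39 and 0.09. The mouse numbers come from the sample titles, and the codes of the deposited columns differ from them for clean air mouse 3 and for mice 2 and 3 of the other groups.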

Additional observations from a re-analysis of the deposited data

Results flagged for a closer look

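Btg2, Ier2 and Cyr61 differed between the time points by the test of the difference itself, 120 min against 30 min (limma). The log2 difference was -2.63 for Btg2, -2.47 for Ier2 and -2.52 for Cyr61, and each of the 3 120 min mice lay below each of the 3 30 min mice. The call of Cyr61 was lost in 15 of 18 alternatives, and that of Ier2 without 120 min mouse 3. The genes were chosen for this contrast, so the result describes them.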

How the results depend on the processing

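All 497 values of the 7 genes under the alternatives kept the sign of any called difference. Of these, 494 moved by less than 1 SD within groups, and the 3 that moved further were those of Cyr61 without 30 min mouse 2. The number of the 7 genes called ranged from 1 to 3 with a mouse left out, both at 30 min against clean air (1 without clean air mouse 1) and at 120 min against 30 min (1 without 120 min mouse 3). The number of all genes called at 120 min against clean air was 11. It fell to 2 when only the groups compared were fitted and ranged from 0 to 11 with a mouse left out (0 by limma without clean air mouse 2 or 120 min mouse 3, with 1092 and 855 genes at unadjusted p under 0.05, 3 without 120 min mouse 1 or 2, and 6 without clean air mouse 1); the cause was not tested. The counts of the other comparisons stayed within 1.5 times. With the mouse number as a replicate block the count at 30 min was 22 in place of 18. It was 11 at 120 min, 10 between these times, and 15 in place of 13 for 30 min against the mean of the others. More genes then had an unadjusted p under 0.05 (limma), 1396 in place of 756 at 30 min and 1910 in place of 1223 at 120 min. Between these times they were 854 in place of 430, and for 30 min against the mean of the others 794 in place of 371. Whether the numbers pair mice is not given: the codes of the deposited columns match between the 30 and 120 min groups but, beyond mouse 1, not with clean air. Pair correlations with the 120 min mice went down to 0.081, although all 9 mice matched their own title number best, as a hint from the data. Among these 7 genes the block ended the calls of Cyr61 alone. Cyr61 rested on 28 to 130 estimated reads in clean air and 120 min mice, and depth as a limit was not tested.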
